A study of Mus musculus with 24 samples.

Results

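The genes described here are the lysosomal enzymes, their lumenal activators and carriers, the lysosomal membrane proteins, the MiT/TFE transcription factors and the subunits of the vacuolar proton pump (V-ATPase). They were taken by name from a fixed list of 55 genes, and 54 of these had an amplicon among the 23930 amplicons of the table, whereas *Atp6v0c*, which encodes the proteolipid ring of the pump, was not analysed here. The list holds 11 glycosidases, 5 sulfatases, 5 lipid hydrolases, 10 proteases, 4 lumenal activators and carriers, 7 membrane proteins, 3 transcription factors, and the 9 pump subunits with an amplicon. Monocytes were sorted from the spleens of untreated C57BL/6 mice of 3 genotypes: WT, *Slc29a3*-/-, and *Slc29a3*-/- *Tlr7*-/-. SLC29A3 is a nucleoside transporter of the lysosomal membrane, and TLR7 is an endosomal sensor of RNA and nucleosides. Both alleles were made by genome editing and were germline, so every cell of the animal carried them, and *Slc29a3*-/- *Tlr7*-/- cells lacked both genes. There was no *Tlr7*-/- group with an intact *Slc29a3*. From each genotype, Ly6C hi and Ly6C low cells (CD11b+ Ly6G- SiglecF- NK1.1-) gave 4 libraries each, or 24 libraries in 6 groups. The labels call the cells macrophages, the study's methods sort them as monocytes, and ages and pooling of mice are not given in the sources used here.

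Lysosomes degrade glycans, lipids, proteins and nucleic acids that phagocytes take up, and most of their hydrolases work only in the acid lumen that the V-ATPase maintains. The lumenal enzymes travel to the lysosome largely through mannose 6-phosphate receptors, the heavily glycosylated LAMP proteins line its membrane, and NPC1 and NPC2 carry cholesterol out. The MiT/TFE factors TFEB, TFE3 and MITF bind a short promoter sequence called the CLEAR element (core CACGTG, usually read as TCACGTG) in many of these genes. Loss of single members causes lysosomal storage disorders, in which macrophages fill with undegraded material.

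Because the members were grouped by a shared pathway, their promoters were searched for that element on either strand, in the 250 bases before each RefSeq transcript start (GRCm38.p6). A window was at hand for 46 of the 55 members, and CACGTG stood in 15 of these members (32.6%), against 6.86% of the 27025 genes of the promoter table. The longer TCACGTG, whose matches all lie within CACGTG matches, stood in 14 of the 46 (30.4%), against 3.58% of all genes. The 15 members were *Arsa*, *Atp6v0b*, *Atp6v1a*, *Cln3*, *Ctsa*, *Ctsd*, *Ctsl*, *Gaa*, *Gla*, *Glb1*, *Lamp1*, *Lgmn*, *Mcoln1*, *Naglu* and *Sgsh*. Stretches of 100 bases are shown for 4 of them, a membrane protein, a glycosidase, a pump subunit and a protease that recur in the results, chosen from those whose stretch overlaps no annotated exon. All read 5′ to 3′ on the gene's own strand with the motif in capitals, and they are *Lamp1* at chr8:13159061-13159160 (plus strand), *Gaa* at chr11:119267776-119267875 (plus strand), *Atp6v1a* at chr16:44139338-44139437 (minus strand) and *Lgmn* at chr12:102439093-102439192 (minus strand).
Lamp1: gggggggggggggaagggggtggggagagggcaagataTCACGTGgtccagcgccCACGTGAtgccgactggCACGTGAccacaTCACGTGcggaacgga
Gaa: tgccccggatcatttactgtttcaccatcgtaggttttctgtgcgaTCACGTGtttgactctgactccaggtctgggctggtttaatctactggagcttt
Atp6v1a: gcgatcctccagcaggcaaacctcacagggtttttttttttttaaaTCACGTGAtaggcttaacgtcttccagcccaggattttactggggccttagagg
Lgmn: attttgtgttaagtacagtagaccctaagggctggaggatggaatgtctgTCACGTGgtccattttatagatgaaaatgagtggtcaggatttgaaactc
The *Lamp1* stretch holds 4 copies of the motif, which begin 61, 45, 28 and 15 bases before the start. The single copies begin 140 bases before the start in *Gaa*, 131 in *Atp6v1a* and 49 in *Lgmn*. For *Atp6v1a* and *Lgmn* that RefSeq start and the stretch lie inside the GENCODE gene, which begins at chr16:44139705 and chr12:102439813 on the minus strand. A motif is a string of letters and not a measured binding site, and members with it were called in some comparisons below and not in others.

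Values are reads per 1000000 reads of a library (RPM) on 1 amplicon per gene, so that levels are compared between libraries and never between genes. The libraries held 12311037 to 14572266 inferred reads, and 3 reads correspond to 0.206 to 0.244 RPM. WT replicate 4 of each subset stood apart from WT replicates 1 to 3: the smallest distance of replicate 4 to the others (63.7 in Ly6C hi and 67.4 in Ly6C low, Euclidean over log2(RPM + 1)) was above the largest among the other 3 (24.3 and 44.4). Replicate 4 was also the 1 WT library of each subset with *Ddx3y* and without *Xist*, and it held 12820513 and 13048399 inferred reads, where WT replicates 1 to 3 held 14237380 to 14572266 and the mutant libraries 12311037 to 12983754. *Fcgr4*, used in the sort, was at 25.97 to 62.5 RPM in Ly6C hi and at 605 to 3017 RPM in Ly6C low libraries. The 11 neutrophil markers summed to 76660 to 141900 RPM in *Slc29a3*-/- Ly6C hi libraries, with the top value in replicate 4, against 24870 to 34070 in WT and 13550 to 40690 in *Slc29a3*-/- *Tlr7*-/-. Of the 11 genes, 8 were above all WT libraries in every *Slc29a3*-/- library, the most abundant being *Ngp*, *S100a9* and *S100a8*, while *Mmp8* was below all of them (118 to 156 against 232 to 408 RPM) and *Retnlg* (24.04 to 62.3 RPM) was below WT replicates 1 to 3 (261 to 290 RPM). In Ly6C low libraries they summed to 1315, 2545, 1134, and 74.03 RPM in WT replicates 1 to 4. The sums there were 28.55 to 200.1 RPM in *Slc29a3*-/- and 8.419 to 57.69 RPM in *Slc29a3*-/- *Tlr7*-/-. The 6 granulocyte-monocyte progenitor markers followed with 910.1 to 2936, 346.4 to 460.4 and 371.6 to 945.8 RPM in the same 3 Ly6C hi groups. No gene of these 2 lists was at 0 in these groups. The 7 conventional dendritic cell markers had lower sums in *Slc29a3*-/- Ly6C hi libraries, with 24.06 to 65.47 RPM against 108.3 to 134.7 in WT and 113.5 to 137.7 in *Slc29a3*-/- *Tlr7*-/-. Of the 7, *Flt3*, *Zbtb46*, *Clec9a* and *Xcr1* were below all WT libraries in every *Slc29a3*-/- library, and the other 3 overlapped WT. The 4 plasmacytoid dendritic cell markers, each below all WT libraries, summed to 2.609 to 5.971 against 27.77 to 61.06 and 20.06 to 24.63 RPM. The part of these lists in the results below was not tested. The 9 red pulp macrophage markers summed to 625.1 to 694.3, 864.5 to 1298 and 545.2 to 1672 RPM in WT, *Slc29a3*-/- and *Slc29a3*-/- *Tlr7*-/- Ly6C low cells. Of the 9, 4 were above all WT libraries in every *Slc29a3*-/- Ly6C low library (*Spic*, *Hmox1*, *Adgre1* and *C1qb*), and 4 overlapped WT. *Cd163* was below all WT libraries there (0 to 1.34 against 11.87 to 15.3 RPM). Both the *Slc29a3* and the *Tlr7* amplicon were read in every group, and since the position of the amplicons against the small mutations is not given, they check no genotype. *Xist* without *Ddx3y* was found in 3 of 4 libraries of each WT and *Slc29a3*-/- group and in 1 of each *Slc29a3*-/- *Tlr7*-/- group. *Ddx3y* without *Xist* was found in 1 library of each WT and *Slc29a3*-/- group. In *Slc29a3*-/- *Tlr7*-/- it was found so in 1 Ly6C hi and 2 Ly6C low libraries, and both transcripts together in 2 and 1. Comparisons of this genotype with the others were thus unbalanced for these sex-linked transcripts, and the part of sex in them was not tested.

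In Ly6C hi cells, 33 of the 52 tested members had a lower mean log2 level in *Slc29a3*-/- than in WT. The median of all tested amplicons was also below 0 in this comparison (-0.14). The lower members called at an adjusted P were led by *Ctsl*, *Gla*, *Gaa* and *Npc2*, and the sulfatases *Galns* and *Arsb* were higher. A gene was called when its fold change was over 1.5 with an unadjusted P under 0.05, and a stricter count used an adjusted P under 0.05 (Benjamini-Hochberg, over all amplicons tested). The 52 tested members were those of the 55 that reached 1 RPM in 4 or more of the 12 Ly6C hi libraries. Against WT, 3 members were called higher, where 9.38% of the 10561 tested amplicons were, and 9 lower, where 17.3% were. At an adjusted P, 3 and 8 members passed, against 8.15% and 14.3% of amplicons. The members' median difference was -0.19 on the log2(RPM + 1) scale, and that of all tested amplicons was -0.14. As shares of the members tested, the calls were 5.77% and 17.3%, below and at the shares among all amplicons.

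Compared with *Slc29a3*-/- *Tlr7*-/- Ly6C hi cells, *Slc29a3*-/- cells had 2 members called higher and 13 lower, with 10.5% and 11.9% of all amplicons called in these directions. At an adjusted P these were 2 and 10 members, against 9.0% and 8.22% of amplicons. The median of the members was -0.39, and that of all amplicons was -0.12. Without *Slc29a3*-/- replicate 4, the library with the most neutrophil marker RNA, 2 members were called higher and 6 lower. When the neutrophil markers were left out of the library total, the split was 2 and 8, and it was 3 and 6 against WT. In such bulk samples, fewer cells of a type and less RNA per cell cannot be told apart. TMM scaling moved the median of all amplicons from -0.14 to -0.02 against WT and from -0.12 to -0.0045 against *Slc29a3*-/- *Tlr7*-/-, and the calls were then 3 higher and 6 lower and 2 higher and 8 lower.

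*Slc29a3*-/- *Tlr7*-/- Ly6C hi cells had 8 members called higher and 1 lower than WT, with 3.12% and 9.44% of amplicons called, and no member passed at an adjusted P, against 0.312% and 1.11% of amplicons. The adjusted P of the 9 called members lay between 0.0619 and 0.101. With WT represented by replicate 4 alone, 0 members were called. The members' median was 0.15, and that of all amplicons was -0.06. The comparisons of 1 subset share libraries, since each group enters 2 of them.

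**Figure D1:**
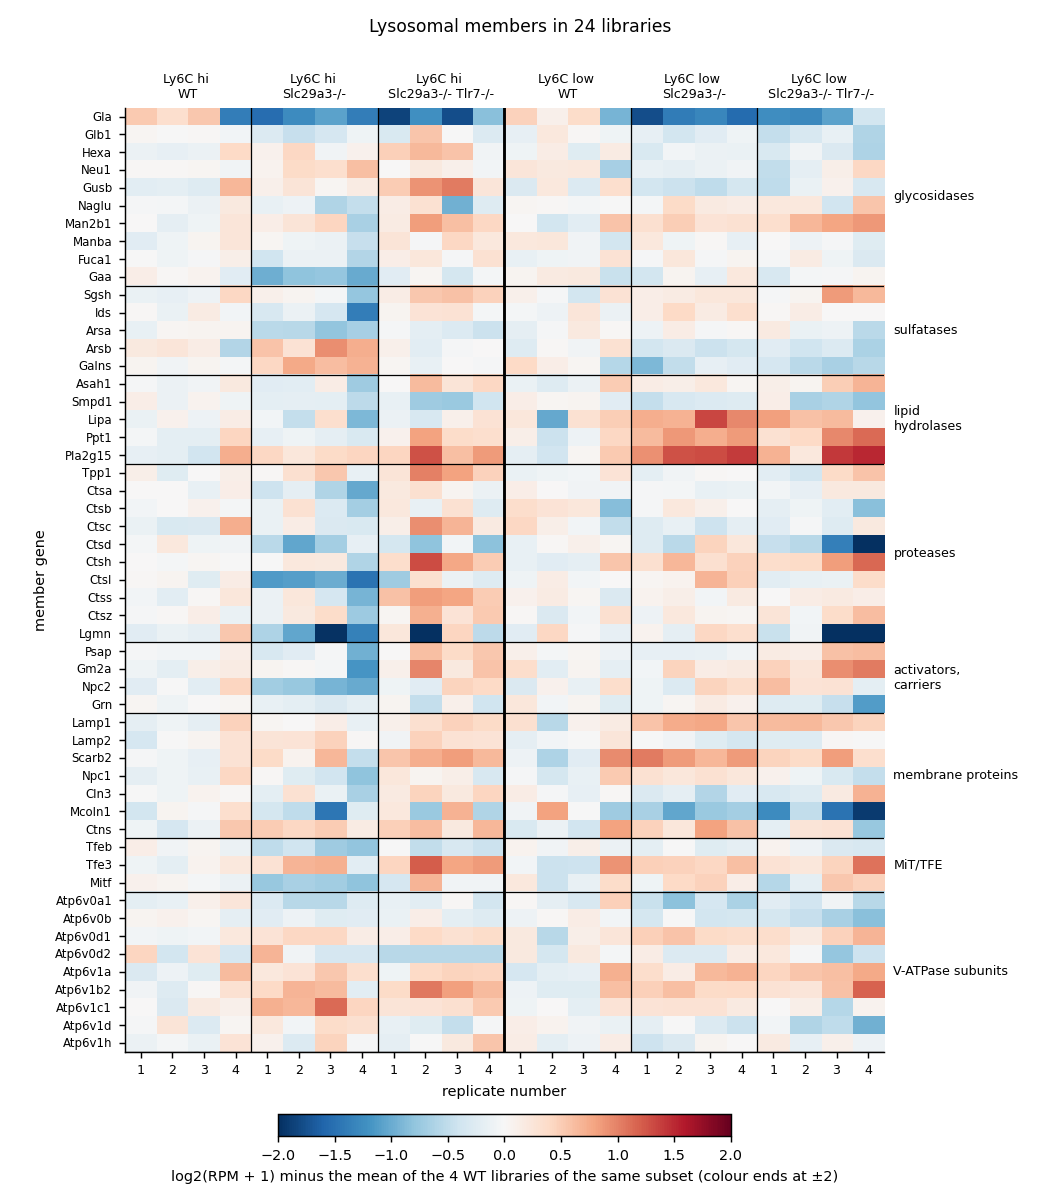
Heatmap of the 53 members tested (rows, by class) in the 24 libraries (columns, by group), as log2(RPM + 1) minus the mean of the 4 WT libraries of the same subset, with the colour scale ending at -2 and 2. Protease rows are mostly on the low side in the 4 Slc29a3-/- Ly6C hi libraries, and the WT replicate 4 columns differ from the other WT columns in many rows.

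In Ly6C low cells, the members called at an adjusted P against WT were *Pla2g15*, *Lamp1*, *Gla*, *Man2b1*, *Gm2a*, *Ctsd* and *Mcoln1*. *Slc29a3*-/- cells had 5 members called higher and 2 lower than WT among the 53 tested, where 6.15% and 7.05% of 10317 amplicons were called, and 2 and 1 passed at an adjusted P, where 1.90% and 2.53% did. The median was 0.05, against 0.0017 for all amplicons. *Slc29a3*-/- *Tlr7*-/- cells had 6 called higher and 4 lower than WT, with a background of 6.08% and 14.6%, and 3 and 2 at an adjusted P, with a background of 2.28% and 6.03%. Their median was -0.04, and that of all amplicons was -0.10. Between *Slc29a3*-/- and *Slc29a3*-/- *Tlr7*-/- cells, 3 members were called higher and 0 lower, with 10.8% and 2.92% of amplicons called, and none passed at an adjusted P in this limma fit, where 1.22% and 0.708% of amplicons did. Without *Slc29a3*-/- *Tlr7*-/- replicate 2 this split was 5 and 2. The counts against WT rested on which WT libraries were used: with WT represented by replicate 4 alone, *Slc29a3*-/- cells had 1 member higher and 3 lower and *Slc29a3*-/- *Tlr7*-/- cells 1 and 4. Without it, the splits were 10 and 3 and 11 and 8. Without *Slc29a3*-/- *Tlr7*-/- replicate 1 the split of that genotype against WT was 7 and 9, and with its replicates 3 and 4 left out it was 1 and 2.

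The hydrolases, taken with the proteases as 30 tested enzymes, are 30 of the 52 members tested in Ly6C hi cells. Against WT, 2 were called higher (6.67%) and 6 lower (20.0%) in *Slc29a3*-/-, near the 9.38% and 17.3% of all amplicons (median -0.22, 8 of 30 above 0). Against *Slc29a3*-/- *Tlr7*-/- 2 were higher (6.67%) and 9 lower (30%), where 10.5% and 11.9% of amplicons were (median -0.45, 5 of 30 above 0). The 7 membrane proteins had no call in either comparison, with medians of 0.01 and -0.37. The pump subunits, 8 of which passed the filter, had 1 call upward against WT and none against *Slc29a3*-/- *Tlr7*-/-, with medians of 0.26 and -0.04. The median of the pump subunits against WT lay above that of all amplicons and the median of the hydrolases below it. These differences between classes were not tested, since genes are not replicates. The mean level of the 10 proteases, on the log2(RPM + 1) scale, was 8.51 ± 0.11 (SD, n = 4) in WT, 8.09 ± 0.23 in *Slc29a3*-/- and 8.69 ± 0.16 in *Slc29a3*-/- *Tlr7*-/- Ly6C hi libraries. On unscaled RPM the *Slc29a3*-/- libraries, at 7.77 to 8.31, all lay under the libraries of both other genotypes. Dividing by the TMM factors would put the highest *Slc29a3*-/- library (8.31, factor 0.94) slightly above the lowest WT library (8.44, factor 1.04). The separation from WT would therefore be lost under TMM scaling.

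**Figure D2:**
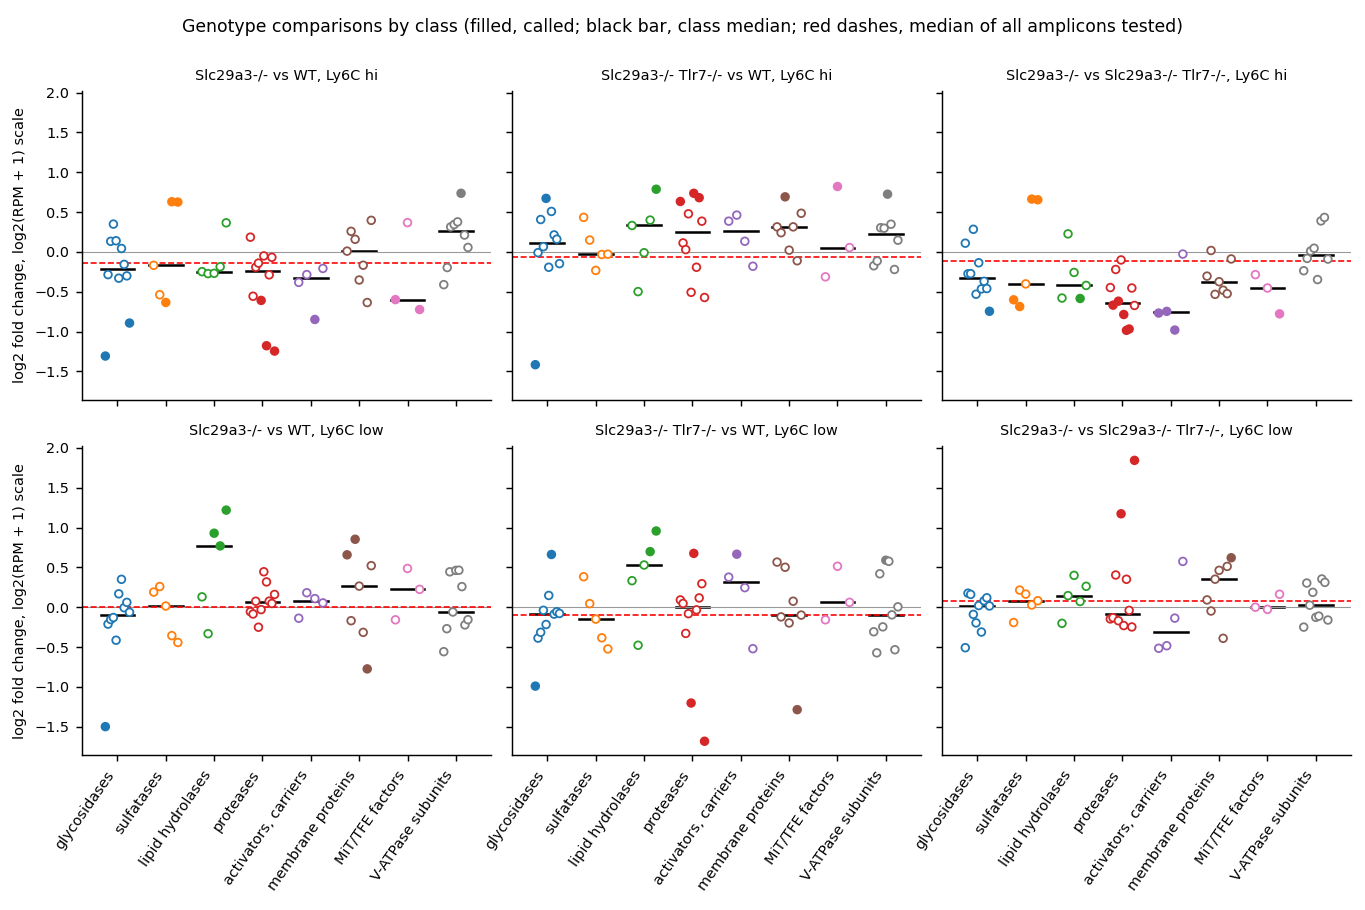
Log2 fold change (log2(RPM + 1) scale, vertical axis) of each member by class (horizontal axis) in the 6 genotype comparisons, 1 panel each, with filled points for called members, a black bar at the class median and a red dashed line at the median of all amplicons tested. In Slc29a3-/- against Slc29a3-/- Tlr7-/- Ly6C hi cells the protease median is -0.64 with no protease above 0, and the pump subunit median is -0.04.

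Among the glycosidases, *Gaa*, the acid alpha-glucosidase that degrades lysosomal glycogen (chromosome 11:119267887-119285454, GRCm38), fell in *Slc29a3*-/- Ly6C hi cells. Values in replicate order were 54.2, 50.3, 51.9, and 41.9 RPM in WT, 24.6, 27.8, 28.3, and 23.98 in *Slc29a3*-/-, and 41.9, 50.5, 38.4, and 47.9 in *Slc29a3*-/- *Tlr7*-/-. All 4 *Slc29a3*-/- libraries were below all 8 others, and the difference was -0.89 ± 0.14 on the log2 scale (SE, adjusted P = 0.0007) against WT and -0.75 ± 0.14 (adjusted P = 0.00212) against *Slc29a3*-/- *Tlr7*-/-. The *Gaa* values in Ly6C low cells were 61.9, 67.9, 68.8, and 43.7 in WT, 46.2, 61.9, 53.0, and 69.5 in *Slc29a3*-/- and 47.7, 58.3, 58.7, and 61.8 in *Slc29a3*-/- *Tlr7*-/-, and the groups overlapped. By fold and unadjusted P, the call against WT in Ly6C hi cells held under every alternative run, and the adjusted P was 0.235 with WT represented by replicate 4 alone.

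*Gla*, alpha-galactosidase A, which cleaves globotriaosylceramide (chromosome X:134588149-134601125), gave 80.7, 70.6, 81.6, and 20.8 RPM in WT, 18.9, 22.9, 26.1, and 20.9 in *Slc29a3*-/- and 14.9, 23.4, 15.8, and 31.03 in *Slc29a3*-/- *Tlr7*-/- Ly6C hi cells. WT replicates 1 to 3 were high, and WT replicate 4 lay within the range of both mutant groups. The difference of *Slc29a3*-/- from WT was -1.31 ± 0.36 (adjusted P = 0.0151), and with WT represented by replicate 4 alone it was 0.08. The same split was seen in Ly6C low cells, with 32.1, 24.8, 29.9, and 11.6 RPM in WT, 6.04, 8.16, 8.76, and 7.31 in *Slc29a3*-/- and 9.21, 8.82, 10.4, and 17.7 in *Slc29a3*-/- *Tlr7*-/-. There the *Slc29a3*-/- libraries did not overlap WT (-1.500 ± 0.30, adjusted P = 0.0114), and the difference from WT replicate 4 alone was -0.57, which was not called.

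*Man2b1*, the acid alpha-mannosidase, rose in *Slc29a3*-/- *Tlr7*-/- Ly6C low cells, with 345, 433, 474, and 501 RPM against 275, 213, 237, and 405 in WT. The 2 groups overlapped, and the difference was 0.66 ± 0.19 (adjusted P = 0.045). Without WT replicate 2 it was 0.54, and from WT replicate 4 alone 0.10, neither of which was called. The other named glycosidases had no call against WT at an adjusted P. Mean RPM ± SD (n = 4) in WT, *Slc29a3*-/- and *Slc29a3*-/- *Tlr7*-/- was 85.4 ± 17.3, 93.2 ± 14.002, and 114 ± 23.1 for *Hexa*, a subunit of beta-hexosaminidase, in Ly6C hi cells and 74.6 ± 10.3, 66.6 ± 4.98, and 59.9 ± 9.24 in Ly6C low cells. *Glb1*, the beta-galactosidase, had 80.3 ± 2.16, 66.0 ± 7.39, and 82.2 ± 24.8 in Ly6C hi and 50.6 ± 5.93, 43.5 ± 3.61, and 38.5 ± 5.36 in Ly6C low cells, and was lower in Ly6C low cells of every genotype (below). For *Gusb*, the beta-glucuronidase, the values were 27.4 ± 9.90, 29.1 ± 2.04, and 43.5 ± 10.97 and 39.4 ± 9.04, 28.7 ± 1.37, and 33.4 ± 6.03. *Gusb* in *Slc29a3*-/- *Tlr7*-/- Ly6C hi cells passed only the unadjusted threshold against WT (0.67 ± 0.22, adjusted P = 0.101).

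*Neu1*, the lysosomal sialidase, had 91.6 ± 3.26, 118 ± 17.6, and 96.1 ± 7.53 RPM in Ly6C hi cells of the 3 genotypes in the same order and 92.2 ± 23.99, 81.6 ± 2.80, and 89.4 ± 24.3 in Ly6C low cells. *Fuca1*, the alpha-fucosidase, had 131 ± 8.08, 107 ± 17.1, and 147 ± 14.04 and 146 ± 21.7, 152 ± 12.6, and 140.2 ± 18.4, and *Naglu*, a heparan sulfate glucosaminidase, 35.6 ± 3.49, 28.3 ± 5.02, and 32.7 ± 11.7 and 27.3 ± 0.705, 30.9 ± 3.81, and 31.2 ± 8.13. None of these was called between genotypes in either subset. *Manba*, the beta-mannosidase, lay between 34.7 and 75.8 RPM over all libraries and had no genotype call. *Idua*, the alpha-iduronidase, reached at most 0.395 RPM and was not tested.

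Of the 3 members called higher in *Slc29a3*-/- than in WT Ly6C hi cells, 2 were sulfatases. *Galns*, which removes sulfate from keratan sulfate and chondroitin sulfate (chromosome 8:122578242-122611463), gave 44.8, 41.1, 44.7, and 42.2 RPM in WT, 58.0, 74.0, 66.7, and 70.9 in *Slc29a3*-/- and 44.5, 38.99, 43.6, and 42.3 in *Slc29a3*-/- *Tlr7*-/-. The *Slc29a3*-/- libraries were above all others, with a difference of 0.63 ± 0.12 (adjusted P = 0.00236) from WT and of 0.65 ± 0.12 (adjusted P = 0.00199) from *Slc29a3*-/- *Tlr7*-/-. Without *Slc29a3*-/- replicate 2 the difference from WT was 0.58, a fold just under the threshold. *Arsb*, which desulfates dermatan sulfate (chromosome 13:93771630-93943016), gave 86.8, 90.5, 84.4, and 50.2 RPM in WT, 113, 93.5, 146, and 126 in *Slc29a3*-/- and 81.2, 65.4, 74.6, and 76.7 in *Slc29a3*-/- *Tlr7*-/-. Again the *Slc29a3*-/- libraries lay above all others (0.63 ± 0.19, adjusted P = 0.0215 against WT and 0.66 ± 0.19, adjusted P = 0.0221 against *Slc29a3*-/- *Tlr7*-/-). The call against WT was lost without WT replicate 4 (0.43) or without *Slc29a3*-/- replicate 3 (0.53), and without the latter the difference from *Slc29a3*-/- *Tlr7*-/- was 0.56. The neutrophil markers were higher in the same 4 libraries, as given above, and their part in both genes was not tested.

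*Arsa*, which desulfates sulfatide, moved the other way, with 39.4, 45.2, 45.4, and 45.9 RPM in WT, 30.01, 29.7, 24.9, and 27.3 in *Slc29a3*-/- and 43.1, 38.01, 36.0, and 32.5 in *Slc29a3*-/- *Tlr7*-/-. All *Slc29a3*-/- libraries were lower than the others, and the difference from WT was -0.64 ± 0.14 (adjusted P = 0.00389). It was -0.50 after TMM scaling and -0.58 without *Slc29a3*-/- replicate 3, with a fold under 1.5 in both. *Ids*, the iduronate sulfatase, had 90.5, 104, 89.4, and 42.9 RPM in *Slc29a3*-/- and 117, 137, 139, and 110.4 in *Slc29a3*-/- *Tlr7*-/- Ly6C hi cells, against 115, 103, 127, and 109 in WT. *Slc29a3*-/- replicate 4 was the lowest library, and the difference from *Slc29a3*-/- *Tlr7*-/-, -0.69 ± 0.22 (adjusted P = 0.0373), was -0.41 without it. *Sgsh*, the heparan sulfamidase, passed only the unadjusted threshold in that comparison (-0.60 ± 0.21, adjusted P = 0.0508). No sulfatase was called between genotypes in Ly6C low cells.

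The adjusted calls of lipid hydrolases against WT lay in Ly6C low cells. *Pla2g15*, the lysosomal phospholipase A2 (chromosome 8:106150399-106164715), gave 69.5, 60.3, 81.2, and 113 RPM in WT, 149, 191, 196, and 209 in *Slc29a3*-/- and 128, 91.7, 212, and 225 in *Slc29a3*-/- *Tlr7*-/-. All *Slc29a3*-/- libraries were above WT (1.22 ± 0.27, adjusted P = 0.0187), and the *Slc29a3*-/- *Tlr7*-/- libraries overlapped WT (0.96 ± 0.27, adjusted P = 0.0429). WT replicate 4 was the highest WT library, and the differences from it alone were 0.70 and 0.44. With *Slc29a3*-/- *Tlr7*-/- replicates 3 and 4 left out, that genotype differed from WT by 0.45. *Pla2g15* in Ly6C hi cells had 73.0, 71.3, 62.3, and 136 in WT, 109, 95.6, 107, and 111 in *Slc29a3*-/- and 109.7, 198, 125, and 147 in *Slc29a3*-/- *Tlr7*-/-, where replicate 4 of WT was above the *Slc29a3*-/- range and within that of *Slc29a3*-/- *Tlr7*-/-.

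*Lipa*, the acid lipase that frees cholesterol and fatty acids, passed only the unadjusted threshold in *Slc29a3*-/- Ly6C low cells, with 139, 58.2, 147, and 168 RPM in WT, 197, 193, 301, and 233 in *Slc29a3*-/- and 210.1, 178, 186, and 126 in *Slc29a3*-/- *Tlr7*-/- (0.93 ± 0.28, adjusted P = 0.0787 against WT). All of the *Slc29a3*-/- libraries were above WT. *Ppt1*, the palmitoyl-protein thioesterase, gave 230.1, 158, 198, and 282 RPM in WT, 328, 388, 352, and 383 in *Slc29a3*-/- and 262, 279, 413, and 467 in *Slc29a3*-/- *Tlr7*-/- Ly6C low cells. Again *Slc29a3*-/- did not overlap WT, and the adjusted P just missed the threshold (0.77 ± 0.21, adjusted P = 0.0504). In Ly6C hi cells *Ppt1* had 261, 232, 233, and 359 in WT, 237, 251, 235, and 216 in *Slc29a3*-/- and 284, 466, 345, and 337 in *Slc29a3*-/- *Tlr7*-/-, and *Slc29a3*-/- was lower than *Slc29a3*-/- *Tlr7*-/- (-0.59 ± 0.17, adjusted P = 0.0226). That call was lost after TMM scaling (-0.47), without *Slc29a3*-/- replicate 4 (-0.55) and without *Slc29a3*-/- *Tlr7*-/- replicate 2 (-0.45). *Asah1*, the acid ceramidase, had 209.6 ± 21.1, 179.6 ± 43.2, and 266 ± 48.2 RPM in WT, *Slc29a3*-/- and *Slc29a3*-/- *Tlr7*-/- Ly6C hi cells and 167 ± 44.8, 179 ± 9.19, and 209.6 ± 44.003 in Ly6C low cells (mean ± SD, n = 4). For *Smpd1*, the acid sphingomyelinase, these were 17.4 ± 1.56, 14.3 ± 1.68, and 12.2 ± 2.59 and 19.5 ± 2.14, 15.2 ± 1.13, and 14.2 ± 4.93. Neither gene was called between genotypes.

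Every one of the 10 proteases had a negative difference between *Slc29a3*-/- and *Slc29a3*-/- *Tlr7*-/- Ly6C hi cells, and 5 were called lower, where 11.9% of all amplicons were (median -0.64). Against WT the median was -0.24 with 3 called lower, where 17.3% of amplicons were. The sums of the dendritic cell markers were lower in the same libraries, as given above, and the part of these markers in the protease values was not tested. *Ctsl*, cathepsin L (chromosome 13:64359337-64370890), gave 91.4, 93.05, 75.9, and 99.995 RPM in WT, 40.1, 41.4, 44.5, and 31.4 in *Slc29a3*-/- and 54.3, 112, 82.4, and 74.9 in *Slc29a3*-/- *Tlr7*-/-. The *Slc29a3*-/- libraries lay below all others, 2.26-fold lower than WT (-1.18 ± 0.19, adjusted P = 0.000794) and 1.98-fold lower than *Slc29a3*-/- *Tlr7*-/- (-0.99 ± 0.19, adjusted P = 0.00248). *Ctsl* in Ly6C low cells had 54.3, 64.0, 55.5, and 57.9 in WT, 59.4, 61.0, 92.8, and 81.0 in *Slc29a3*-/- and 49.9, 52.0, 52.4, and 74.6 in *Slc29a3*-/- *Tlr7*-/-, and was not called. The Ly6C hi call against WT, by fold and unadjusted P, held under every alternative run, and the adjusted P was 0.0706 with WT represented by replicate 4 alone.

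*Ctss*, cathepsin S, which trims the invariant chain of MHC class II (chromosome 3:95526786-95556403), gave 1465, 1314, 1538, and 1779 RPM in WT, 1396, 1768, 1206, and 794 in *Slc29a3*-/- and 2271, 2711, 2625, and 2149.6 in *Slc29a3*-/- *Tlr7*-/- Ly6C hi cells. The *Slc29a3*-/- *Tlr7*-/- libraries were above all *Slc29a3*-/- and all WT libraries, and *Slc29a3*-/- overlapped WT. The difference between the mutant genotypes was -0.97 ± 0.20 (adjusted P = 0.00454). *Ctsh*, cathepsin H, had 382, 372, 392.2, and 380.1 in WT, 378, 442, 436, and 252 in *Slc29a3*-/- and 487, 942, 652, and 545 in *Slc29a3*-/- *Tlr7*-/-, a similar order, with -0.79 ± 0.20 (adjusted P = 0.0145) between the mutants. *Ctsa*, the protective protein that stabilises beta-galactosidase and sialidase, had 872, 1026, 771, and 575 in *Slc29a3*-/- and 1338, 1463, 1209, and 1075 in *Slc29a3*-/- *Tlr7*-/-, and 1170.5, 1173, 1054, and 1288 in WT. Its difference between the mutants was -0.67 ± 0.17 (adjusted P = 0.0126), and -0.51 without *Slc29a3*-/- replicate 4 and -0.55 after TMM scaling, where its fold was under 1.5. *Ctsc*, the dipeptidyl peptidase that activates granule serine proteases, passed only the unadjusted threshold in that comparison, with 462 ± 181, 402 ± 61.0, and 631 ± 172 RPM in WT, *Slc29a3*-/- and *Slc29a3*-/- *Tlr7*-/- (mean ± SD, n = 4). *Ctsc* in Ly6C low cells had 240.1 ± 61.1, 197 ± 15.7, and 223 ± 33.2.

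*Ctsd*, the aspartic protease cathepsin D (chromosome 7:142375911-142388038), was lower in *Slc29a3*-/- than in WT Ly6C hi cells and lower in *Slc29a3*-/- *Tlr7*-/- than in WT Ly6C low cells. In Ly6C hi cells it gave 878, 1045, 849, and 866 RPM in WT, 621, 442, 562, and 805 in *Slc29a3*-/- and 712, 517, 875, and 511 in *Slc29a3*-/- *Tlr7*-/-. *Slc29a3*-/- did not overlap WT but overlapped *Slc29a3*-/- *Tlr7*-/-, and its difference from WT was -0.61 ± 0.20 (adjusted P = 0.0333). This call was lost after TMM scaling (-0.48) and without WT replicate 2 (-0.54), *Slc29a3*-/- replicate 2 (-0.47) or *Slc29a3*-/- replicate 3 (-0.58). *Ctsd* in Ly6C low cells gave 881, 991, 1046, and 1001 in WT, 821, 671, 1331, and 1146 in *Slc29a3*-/- and 708, 668, 379.7, and 179.8 in *Slc29a3*-/- *Tlr7*-/-. All 4 *Slc29a3*-/- *Tlr7*-/- libraries were below WT, with replicates 3 and 4 lowest, and the difference of -1.20 ± 0.35 (adjusted P = 0.0482) was -0.51 with those 2 left out.

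*Lgmn*, legumain, the asparaginyl endopeptidase that processes cathepsins (chromosome 12:102394084-102439813), had the same low libraries, with 156, 242, 179, and 162 RPM in WT, 191, 159.5, 243, and 229 in *Slc29a3*-/- and 133, 174, 36.8, and 10.9 in *Slc29a3*-/- *Tlr7*-/- Ly6C low cells. It passed only the unadjusted threshold against WT (-1.68 ± 0.61, adjusted P = 0.0869). *Lgmn* in Ly6C hi cells had 71.9, 77.5, 74.5, and 123 in WT, 55.01, 40.6, 20.8, and 32.5 in *Slc29a3*-/- and 98.7, 15.03, 115, and 58.5 in *Slc29a3*-/- *Tlr7*-/-. *Slc29a3*-/- did not overlap WT there, and the adjusted P was above 0.05 (-1.25 ± 0.48, adjusted P = 0.0664). The red pulp macrophage markers summed to 901.7 and 1672 RPM in *Slc29a3*-/- *Tlr7*-/- Ly6C low replicates 3 and 4 and to 545.2 and 650.7 RPM in replicates 1 and 2. This difference was carried by *Hmox1*, an enzyme of heme breakdown, at 480.0 and 1431 against 189.6 and 335.1 RPM. Without it the other 8 markers summed to 421.8 and 240.8 RPM in replicates 3 and 4 and to 355.6 and 315.5 in replicates 1 and 2, and *Adgre1*, which encodes F4/80, was at 213.0 and 87.89 against 273.9 and 223.6. Their part in *Ctsd* and *Lgmn* was not tested.

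*Ctsb*, cathepsin B, gave 1682, 1749.9, 1852, and 1688 RPM in WT, 1595, 2151, 1445, and 1088 in *Slc29a3*-/- and 2026, 1573, 2154, and 1451 in *Slc29a3*-/- *Tlr7*-/- Ly6C hi cells. Its values in Ly6C low cells were 5123, 4848, 4729, and 2237, 3962, 4683, 4317, and 4037 and 3557, 3776, 3467, and 2264. It had no genotype call, and WT replicate 4 was far below the other WT libraries in Ly6C low cells. *Ctsz*, cathepsin Z, had 231 ± 18.04, 228 ± 69.5, and 306 ± 62.0 RPM in the 3 genotypes of Ly6C hi and 223 ± 39.1, 228 ± 20.4, and 274 ± 52.3 of Ly6C low cells (mean ± SD, n = 4). *Tpp1*, the tripeptidyl peptidase, had 47.4 ± 5.32, 54.6 ± 11.6, and 75.1 ± 17.7 and 74.7 ± 10.2, 71.4 ± 4.88, and 82.1 ± 25.7, and passed only the unadjusted threshold in *Slc29a3*-/- *Tlr7*-/- against WT Ly6C hi cells.

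**Figure D3:**
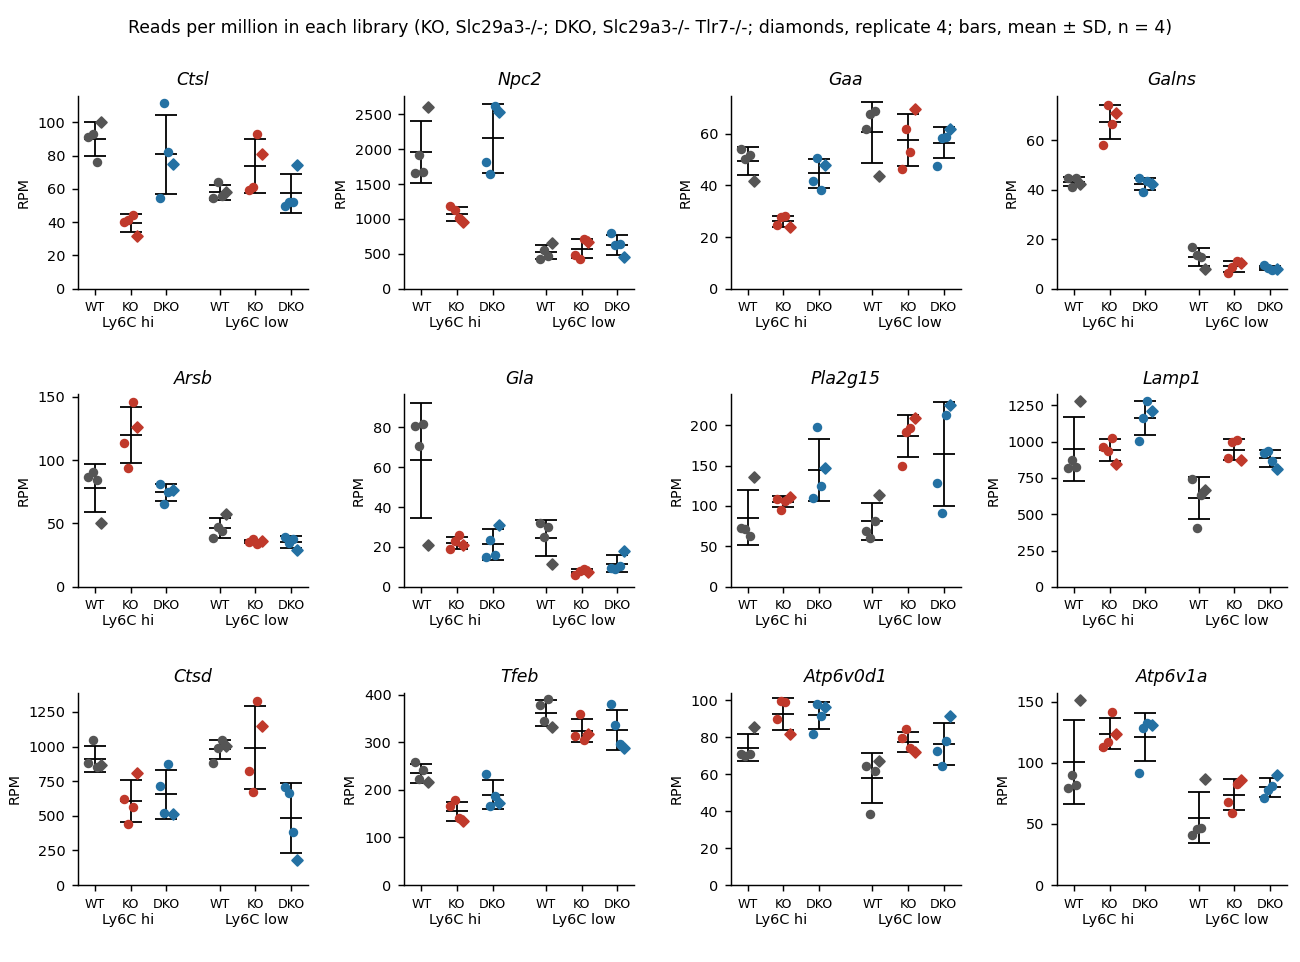
RPM of 12 members in each of the 24 libraries (points, vertical axis from 0), by group (horizontal axis, with KO for Slc29a3-/- and DKO for Slc29a3-/- Tlr7-/-), with bars for the mean ± SD of 4 libraries and diamonds for replicate 4. Among the 12 Ly6C hi libraries, Ctsl, Npc2 and Gaa are lowest in the 4 Slc29a3-/- libraries, and Gla is high in WT replicates 1 to 3 of both subsets, at 70.6 to 81.6 RPM in Ly6C hi cells, and not in WT replicate 4.

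Of the 4 lumenal activators and carriers, 1 was called lower in *Slc29a3*-/- than in WT Ly6C hi cells, where 17.3% of amplicons were, and 3 were lower than in *Slc29a3*-/- *Tlr7*-/-, where 11.9% were. At an adjusted P these were 1 and 2, and the medians over the 4 genes were -0.33 and -0.76. *Npc2*, which hands cholesterol to NPC1 (chromosome 12:84754562-84773152), gave 1651, 1921, 1668, and 2598 RPM in WT, 1183, 1133, 1016, and 958 in *Slc29a3*-/- and 1821, 1644, 2624, and 2527 in *Slc29a3*-/- *Tlr7*-/-. The *Slc29a3*-/- libraries were below all others (-0.85 ± 0.19, adjusted P = 0.00465 against WT and -0.98 ± 0.19, adjusted P = 0.00223 against *Slc29a3*-/- *Tlr7*-/-), and the call against WT, by fold and unadjusted P, held under every alternative run, with an adjusted P of 0.0538 where WT replicate 4 stood alone for WT. Its Ly6C low values were 427, 549, 469, and 661 in WT, 489, 428, 708, and 661 in *Slc29a3*-/- and 799, 625, 635, and 453 in *Slc29a3*-/- *Tlr7*-/-, without a call. *Psap*, the precursor of the saposins that present lipids to hydrolases (chromosome 10:60277627-60302597), gave 4383, 4321, 4291, and 4888 in WT, 3576, 3813, 4398, and 2289.9 in *Slc29a3*-/- and 4501, 6785, 5841, and 6483 in *Slc29a3*-/- *Tlr7*-/- Ly6C hi cells. The mutants did not overlap (-0.77 ± 0.20, adjusted P = 0.0166), replicate 4 was the lowest *Slc29a3*-/- library, and without it the difference was -0.58. *Psap* in Ly6C low cells had 2868, 2601, 2759, and 2498 in WT, 2399, 2387, 2410.0, and 2536 in *Slc29a3*-/- and 3013, 2927, 4019, and 4128 in *Slc29a3*-/- *Tlr7*-/-, without a call.

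*Gm2a*, the GM2 ganglioside activator, rose in *Slc29a3*-/- *Tlr7*-/- Ly6C low cells, with 883, 599, 719, and 613 RPM in WT, 669, 949.7, 770.4, and 787 in *Slc29a3*-/- and 955, 820.2, 1322, and 1427 in *Slc29a3*-/- *Tlr7*-/-. Replicates 3 and 4 were the highest, the groups overlapped, and the difference of 0.67 ± 0.20 (adjusted P = 0.049) from WT was 0.58 without replicate 3 and 0.54 without replicate 4, with a fold under the threshold and an adjusted P over 0.05 in both. *Gm2a* in Ly6C hi cells had 512, 473, 587, and 605 in WT, 562, 552, 525, and 239 in *Slc29a3*-/- and 579, 1066, 623, and 806 in *Slc29a3*-/- *Tlr7*-/-, with *Slc29a3*-/- replicate 4 far below the rest. *Grn*, progranulin, had 1331 ± 54.3, 1152 ± 45.9, and 1193 ± 242 RPM in the 3 genotypes of Ly6C hi and 759 ± 104, 783 ± 53.8, and 539.8 ± 136 of Ly6C low cells (mean ± SD, n = 4) and no genotype call.

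The membrane proteins had no adjusted call in Ly6C hi cells and 2 in Ly6C low cells. *Lamp1*, an abundant glycoprotein of the lysosomal membrane (chromosome 8:13159161-13175338), gave 745, 404, 631, and 667 RPM in WT, 887, 996, 1015, and 876 in *Slc29a3*-/- and 924, 935, 869.5, and 812 in *Slc29a3*-/- *Tlr7*-/- Ly6C low cells. All mutant libraries were above all WT libraries. The difference of *Slc29a3*-/- from WT was 0.66 ± 0.17 (adjusted P = 0.0432), and that of *Slc29a3*-/- *Tlr7*-/- was 0.57 ± 0.17 (adjusted P = 0.0526) with a fold under 1.5. Without WT replicate 2, the lowest library, the *Slc29a3*-/- difference was 0.47, and from WT replicate 4 alone 0.50, neither of which was called. *Lamp1* in Ly6C hi cells gave 822, 877, 823, and 1278 in WT, 961, 934, 1026, and 844 in *Slc29a3*-/- and 1003, 1165, 1278, and 1213 in *Slc29a3*-/- *Tlr7*-/-, and the groups overlapped.

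*Mcoln1*, the TRPML1 calcium channel (chromosome 8:3500457-3515232), fell in *Slc29a3*-/- *Tlr7*-/- Ly6C low cells, with 21.5, 40.1, 22.5, and 13.4 RPM in WT, 14.2, 10.6, 13.1, and 13.8 in *Slc29a3*-/- and 8.88, 15.8, 7.50, and 5.27 in *Slc29a3*-/- *Tlr7*-/-. The groups overlapped at WT replicate 4, the difference from WT was -1.29 ± 0.32 (adjusted P = 0.0303), and from WT replicate 4 alone it was -0.57. The Ly6C hi values lay between 3.41 and 18.5 RPM over the 12 libraries. *Scarb2*, the LIMP-2 receptor that carries glucocerebrosidase, passed only the unadjusted threshold in *Slc29a3*-/- Ly6C low cells (0.85 ± 0.26, adjusted P = 0.0812). Its values there were 29.1, 20.1, 26.6, and 60.9 in WT, 65.0, 57.2, 50.4, and 57.4 in *Slc29a3*-/- and 43.1, 40.9, 56.9, and 39.7 in *Slc29a3*-/- *Tlr7*-/-, and WT replicate 4 was within the *Slc29a3*-/- range. Its Ly6C hi values were 44.2 ± 6.50, 51.1 ± 16.4, and 71.6 ± 6.23 RPM in the 3 genotypes (mean ± SD, n = 4), and *Slc29a3*-/- *Tlr7*-/- passed only the unadjusted threshold against WT.

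*Lamp2*, the second LAMP glycoprotein, had 439 ± 76.2, 522 ± 64.6, and 518 ± 75.8 RPM in WT, *Slc29a3*-/- and *Slc29a3*-/- *Tlr7*-/- Ly6C hi and 346 ± 44.2, 307 ± 33.6, and 318 ± 33.6 in Ly6C low cells. *Npc1*, the cholesterol exporter, had 99.8 ± 21.2, 78.4 ± 18.4, and 101 ± 16.1 and 84.01 ± 23.6, 98.5 ± 3.06, and 72.0 ± 12.5, and *Cln3*, a membrane protein mutated in Batten disease, 60.8 ± 2.61, 55.5 ± 15.2, and 76.0 ± 7.63 and 92.0 ± 8.59, 73.9 ± 9.09, and 101 ± 34.7. None of the 3 was called between genotypes. *Ctns*, the cystine exporter, lay between 16.9 and 56.5 RPM over all libraries, and *Slc29a3*-/- passed only the unadjusted threshold against *Slc29a3*-/- *Tlr7*-/- Ly6C low cells (0.62 ± 0.28, adjusted P = 0.248).

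Of the MiT/TFE factors, *Tfeb* and *Mitf* were lower in *Slc29a3*-/- than in WT Ly6C hi cells. *Tfeb* (chromosome 17:47737030-47792419) gave 258, 222, 242, and 216 RPM in WT, 165, 178, 142, and 135 in *Slc29a3*-/- and 233, 166, 187, and 173 in *Slc29a3*-/- *Tlr7*-/-. *Slc29a3*-/- did not overlap WT (-0.60 ± 0.14, adjusted P = 0.00534), at a fold of 1.52, close to the threshold. The fold was under 1.5 after TMM scaling (-0.47), with WT represented by replicate 4 alone (-0.49), and without WT replicate 1 (-0.55), WT replicate 3 (-0.58), *Slc29a3*-/- replicate 3 (-0.56) or *Slc29a3*-/- replicate 4 (-0.54). *Tfeb* in Ly6C low cells had 378, 346, 391.5, and 333 in WT, 314, 359, 305, and 318 in *Slc29a3*-/- and 381, 336, 297, and 288 in *Slc29a3*-/- *Tlr7*-/-, and the groups overlapped.

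*Mitf* (chromosome 6:97807052-98021349) gave 21.6, 21.1, 19.7, and 18.6 RPM in WT, 11.6, 12.6, 12.1, and 11.1 in *Slc29a3*-/- and 15.9, 33.1, 19.3, and 19.2 in *Slc29a3*-/- *Tlr7*-/- Ly6C hi cells. The *Slc29a3*-/- libraries were below all others (-0.72 ± 0.20, adjusted P = 0.0145 against WT and -0.78 ± 0.20, adjusted P = 0.0133 against *Slc29a3*-/- *Tlr7*-/-). The difference from WT replicate 4 alone was -0.61 and was not called, and without *Slc29a3*-/- *Tlr7*-/- replicate 2 the difference between the mutants was -0.57. *Mitf* in Ly6C low cells lay between 3.80 and 9.31 RPM. *Tfe3* had 39.3, 36.4, 43.8, and 48.5 in WT, 51.3, 67.3, 68.7, and 36.0 in *Slc29a3*-/- and 56.4, 98.4, 73.2, and 75.7 in *Slc29a3*-/- *Tlr7*-/- Ly6C hi cells, and passed only the unadjusted threshold in *Slc29a3*-/- *Tlr7*-/- against WT (0.82 ± 0.21, adjusted P = 0.0619). Its Ly6C low values were 36.8 ± 18.8, 48.1 ± 2.72, and 50.5 ± 15.3 RPM (mean ± SD, n = 4), with WT replicate 4 above the other 3 WT libraries. At an adjusted P, 23 members were called in a genotype comparison or in the subset difference of the *Slc29a3*-/- effect (below). Of these, 20 had a promoter window, and 8 of the 20 held CACGTG, where 15 of all 46 members with a window did (32.6%).

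The V-ATPase subunits had 1 adjusted call in the genotype comparisons. The pump has a membrane sector (V0) that conducts protons and a cytosolic sector (V1) that hydrolyses ATP. In *Slc29a3*-/- Ly6C hi cells 6 of the 8 tested subunits had a positive difference from WT. Of the 8, 1 was called higher, where 9.38% of all tested amplicons were. *Atp6v1c1*, the C subunit that joins the 2 sectors (chromosome 15:38661933-38692446), gave 23.7, 19.1, 27.03, and 25.5 RPM in WT, 39.4, 37.9, 53.4, and 32.3 in *Slc29a3*-/- and 28.5, 28.9, 29.9, and 34.5 in *Slc29a3*-/- *Tlr7*-/-. *Slc29a3*-/- was above WT in all libraries and overlapped *Slc29a3*-/- *Tlr7*-/-. The difference from WT was 0.74 ± 0.17 (adjusted P = 0.006), and from WT replicate 4 alone it was 0.63, which was not called. *Atp6v1c1* in Ly6C low cells lay between 16.3 and 30.5 RPM over the 12 libraries.

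Of the V1 subunits, *Atp6v1a*, which binds ATP, gave 79.4, 89.9, 81.9, and 151 RPM in WT, 113, 117, 142, and 123 in *Slc29a3*-/- and 91.5, 128, 132, and 131 in *Slc29a3*-/- *Tlr7*-/- Ly6C hi cells. The values in Ly6C low cells were 41.3, 45.6, 46.9, and 86.4, 67.7, 58.6, 82.9, and 85.5 and 71.4, 77.99, 80.6, and 89.7. WT replicate 4 was above WT replicates 1 to 3 in both subsets, and in Ly6C low cells *Slc29a3*-/- *Tlr7*-/- passed only the unadjusted threshold against WT (0.59 ± 0.21, adjusted P = 0.0896). *Atp6v1b2*, the B subunit, had 218 ± 35.9, 289 ± 73.8, and 363 ± 71.1 RPM in WT, *Slc29a3*-/- and *Slc29a3*-/- *Tlr7*-/- Ly6C hi and 164 ± 52.2, 219 ± 16.2, and 245 ± 80.1 in Ly6C low cells (mean ± SD, n = 4), and *Atp6v1h*, the regulatory H subunit, 32.7 ± 4.74, 34.4 ± 7.59, and 36.8 ± 8.54 and 30.1 ± 3.75, 27.003 ± 4.34, and 30.2 ± 3.44. *Atp6v1b2* passed only the unadjusted threshold in *Slc29a3*-/- *Tlr7*-/- against WT Ly6C hi cells (0.72 ± 0.20, adjusted P = 0.0715), and *Atp6v1h* was not called.

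Of the V0 subunits, *Atp6v0a1*, the a subunit through which protons pass, had 90.5 ± 13.3, 67.6 ± 7.84, and 79.8 ± 8.83 RPM in WT, *Slc29a3*-/- and *Slc29a3*-/- *Tlr7*-/- Ly6C hi and 64.4 ± 16.9, 42.8 ± 6.41, and 51.0 ± 7.40 in Ly6C low cells. *Atp6v0d1*, the stalk subunit, had 74.4 ± 7.47, 92.6 ± 8.42, and 91.9 ± 7.31 and 57.9 ± 13.3, 77.5 ± 5.50, and 76.6 ± 11.4. Neither was called between genotypes, nor were *Atp6v0b*, at 142 to 280.3 RPM over all libraries, and *Atp6v1d*, at 20.6 to 74.0 RPM. *Atp6v0d2*, the stalk isoform known from osteoclasts and macrophages, was at 1.35 RPM or less. Its genotype differences were tested in Ly6C low cells alone, without a call. It was listed at 0 in all 4 *Slc29a3*-/- *Tlr7*-/- Ly6C hi libraries, where 3 reads would be 0.231 to 0.244 RPM, and gave 1.29, 0.953, 0.158, and 0.479 RPM in the Ly6C low libraries of that genotype. The fit over all 24 libraries called it higher in Ly6C low cells there (adjusted P = 0.028), and without Ly6C low replicate 1 the fold was under 1.5 and the adjusted P 0.0969. At such levels the fitted difference depends on the added 1 RPM and is not a fold of the gene.

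The loss of *Slc29a3* went with different changes in the 2 subsets for several members, and the difference of the effects was itself tested as an interaction over all 24 libraries. Here 11 members had a higher and 2 a lower effect in Ly6C low than in Ly6C hi cells, where 12.3% and 7.94% of 11042 amplicons were called, and 6 and 2 passed at an adjusted P, where 4.65% and 4.11% did. The median of the members was 0.24, and that of all amplicons was 0.15. TMM scaling moved the latter to -0.0029, and the calls were then 7 and 7, while with the neutrophil markers left out of the total they were 7 and 3. *Ctsl* had the largest tested difference of effects among the members at an adjusted P, 1.496 ± 0.27 (adjusted P = 0.000872). *Lipa* followed with 1.20 ± 0.38 (adjusted P = 0.048), then *Npc2* with 0.96 ± 0.29 (adjusted P = 0.0374), *Ppt1* with 0.96 ± 0.27 (adjusted P = 0.0285), *Gaa* with 0.83 ± 0.22 (adjusted P = 0.0194) and *Arsa* with 0.65 ± 0.20 (adjusted P = 0.0433).

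*Galns* (-1.07 ± 0.26, adjusted P = 0.0096) and *Arsb* (-0.99 ± 0.24, adjusted P = 0.0109) had the opposite sign, being higher in *Slc29a3*-/- than in WT in Ly6C hi cells and not in Ly6C low cells. For *Lipa* the effects were -0.27 in Ly6C hi and 0.93 in Ly6C low cells. Of these 8, 3 lost the call with WT represented by replicate 4 alone, namely *Arsa* (0.69), *Galns* (-0.52) and *Lipa* (0.85), and *Arsa* lost it after TMM scaling (0.48). By an adjusted P, 3 of the 8 still passed after TMM scaling, namely *Ctsl*, *Arsb* and *Galns*, and the adjusted P of the other 5 was 0.0934 for *Gaa*, 0.136 for *Arsa*, 0.0666 for *Lipa*, 0.0648 for *Ppt1* and 0.0667 for *Npc2*. With WT represented by replicate 4 alone, 1 of the 8 passed at an adjusted P, which was *Arsb*. The 9 pump subunits had no call here. For the joint loss of *Slc29a3* and *Tlr7*, 0 members had a higher and 3 a lower effect in Ly6C low cells, with 3.50% and 4.29% of amplicons called. None passed at an adjusted P in the limma fit, where 0.0362% and 0.0272% did. The 3 were *Hexa* (-0.72), *Gusb* (-0.89) and *Mcoln1* (-1.18). The split was 1 and 6 without WT Ly6C hi replicate 4, 0 and 7 without WT Ly6C low replicate 4, 0 and 6 without *Slc29a3*-/- *Tlr7*-/- Ly6C hi replicate 1, and 0 and 5 without its Ly6C low replicate 2.

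**Figure D4:**
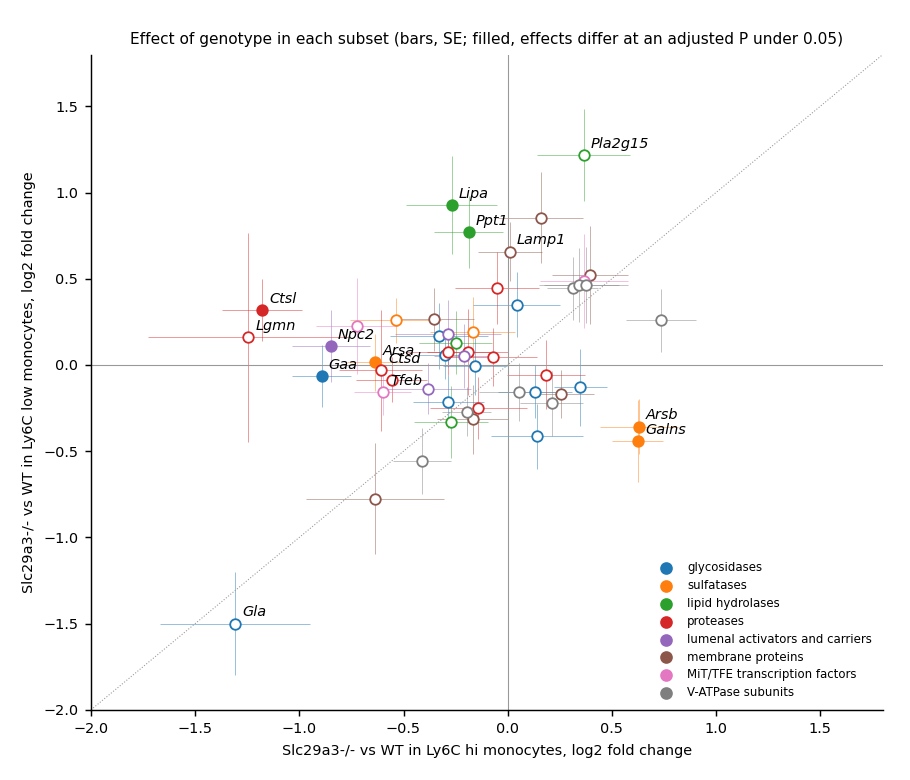
Log2 fold change ± SE of Slc29a3-/- against WT for each member in Ly6C hi cells (horizontal axis) and in Ly6C low cells (vertical axis), on the log2(RPM + 1) scale, with filled points where the 2 effects differ at an adjusted P under 0.05. Ctsl, Npc2 and Gaa lie left of 0 and above the diagonal, and Galns and Arsb lie right of 0 and below it.

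More members were called between the 2 monocyte subsets than between genotypes. In WT, 6 members were called higher and 12 lower in Ly6C low than in Ly6C hi cells, where 9.64% and 19.6% of amplicons were called, and all 18 passed at an adjusted P, where 8.46% and 17.5% did. In *Slc29a3*-/- these were 16 and 11, with a background of 20.3% and 17.3%, and 14 and 11 at an adjusted P, with a background of 18.5% and 16.5%. In *Slc29a3*-/- *Tlr7*-/- they were 4 and 19, with 10.7% and 20.9% of amplicons called, and 4 and 17 at an adjusted P, with 9.64% and 18.7%. TMM scaling changed the splits to 13 and 14 in *Slc29a3*-/- and 5 and 12 in *Slc29a3*-/- *Tlr7*-/-. The sets of calls are not compared here, since a difference between genotypes needs the interaction above.

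*Galns*, *Npc2*, *Mitf*, *Arsb* and *Ctsc* were lower in Ly6C low cells of all 3 genotypes at an adjusted P, and so was *Glb1*, while *Ctsb*, *Tfeb* and *Sgsh* were higher. In WT, *Slc29a3*-/- and *Slc29a3*-/- *Tlr7*-/-, the log2 differences were -1.72, -2.79 and -2.22 for *Galns* and -1.89, -0.93 and -1.78 for *Npc2*. They were 1.21, 1.48 and 0.85 for *Ctsb* and 0.62, 1.07 and 0.78 for *Tfeb*. *Tfeb* and *Mitf* thus had opposite subset differences, with -1.58, -0.64 and -1.58 for *Mitf*. *Glb1* in *Slc29a3*-/- (-0.59) fell under the fold threshold without *Slc29a3*-/- Ly6C hi replicate 4 (-0.52) or Ly6C low replicate 2 (-0.53), and *Sgsh* in *Slc29a3*-/- *Tlr7*-/- (0.68) was not called without Ly6C low replicate 3 (0.53). *Mitf* in *Slc29a3*-/- was not called without Ly6C low replicate 1 (-0.53), and *Tfeb* in WT was under the fold threshold with the neutrophil markers left out of the total (0.58). *Ctsl* was lower in WT (-0.62 ± 0.19, adjusted P = 0.0132) and higher in *Slc29a3*-/- Ly6C low cells (0.87 ± 0.19, adjusted P = 0.000549), and the difference between these is the interaction given above. The WT difference of *Ctsl* was -0.55 after TMM scaling and -0.57 without Ly6C hi WT replicate 4, with a fold under 1.5.

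Other genes of the pathway were taken from a second list of 77 genes, of which 74 had an amplicon and 66 and 67 were tested in Ly6C hi and Ly6C low cells. In *Slc29a3*-/- against WT Ly6C hi cells 3 were called higher (4.55%) and 8 lower (12.1%), where 9.38% and 17.3% of amplicons were called. All of them passed at an adjusted P, where 8.15% and 14.3% of amplicons did. Against *Slc29a3*-/- *Tlr7*-/- 4 were higher and 11 lower, where 10.5% and 11.9% of amplicons were, and 2 and 10 passed at an adjusted P. Among the 16 other lysosomal enzymes tested, 0 were higher and 3 lower than WT, where 9.38% and 17.3% of amplicons were. The share called lower was thus near that of all amplicons. These 3 were the cathepsins *Ctsf* (-1.06 ± 0.29, adjusted P = 0.014) and *Ctsw* (-3.98 ± 0.79, adjusted P = 0.00253) and the acetyltransferase *Hgsnat* (-0.62 ± 0.20, adjusted P = 0.0341). *Ctsw* is a granule protease of lymphocytes, and the 4 NK cell markers summed to 95.55 to 405.7 RPM in WT and 17.63 to 35.19 in *Slc29a3*-/- Ly6C hi libraries, with all 4 genes lower in every *Slc29a3*-/- library. The 4 T cell markers summed to 12.95 to 92.88 and 1.745 to 7.828 RPM, with 3 genes that did not overlap. Their part in *Ctsw* was not tested. Of the 20 other membrane proteins, the tetraspanin *Cd63* was higher (1.60 ± 0.38, adjusted P = 0.00716) and the macrophage glycoprotein *Cd68* lower (-0.70 ± 0.20, adjusted P = 0.0181). Of the 8 other pump subunits only *Tcirg1*, the a3 subunit, was called, and it was lower (-0.83 ± 0.21, adjusted P = 0.00977).

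Of the 10 mannose 6-phosphate sorting genes, the receptor *Igf2r* (1.12 ± 0.35, adjusted P = 0.0279) and the sorting receptor *Sort1* (0.62 ± 0.14, adjusted P = 0.00601) were higher and *Gnptg*, a subunit of the phosphotransferase that makes the tag, was lower (-0.65 ± 0.17, adjusted P = 0.0129). In Ly6C low cells 3 of the 67 were called higher and 3 lower in *Slc29a3*-/- against WT, with a background of 6.15% and 7.05%. At an adjusted P, 2 and 0 passed, with a background of 1.90% and 2.53%. The 2 were *Acp5*, the tartrate-resistant acid phosphatase, at 133 ± 14.2, 364 ± 93.9, and 155 ± 20.4 RPM in WT, *Slc29a3*-/- and *Slc29a3*-/- *Tlr7*-/- (mean ± SD, n = 4), with 1.42 ± 0.18 (adjusted P = 0.000499) against WT, and the peptide and histidine transporter *Slc15a3* (0.80 ± 0.19, adjusted P = 0.0261). *Acp5* was also higher than in *Slc29a3*-/- *Tlr7*-/- (1.20 ± 0.18, adjusted P = 0.00284). In *Slc29a3*-/- *Tlr7*-/- against WT Ly6C low cells 2 were higher and 11 lower (16.4%), with a background of 6.08% and 14.6%. At an adjusted P these were 0 and 4, with a background of 2.28% and 6.03%, and among the 4 were the Ragulator subunits *Lamtor1* (-0.72 ± 0.18, adjusted P = 0.0298) and *Lamtor2* (-0.61 ± 0.14, adjusted P = 0.0229).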

How the data were processed

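The authors made AmpliSeq libraries (1 ng RNA, RIN over 7.3) and read them on an Ion Proton, and per the labels they used Torrent Suite 5.2.2 with its AmpliSeqRNA plug-in (version 5.2.0.3). The deposited values are RPM, that is, reads per 1000000 reads of a library over 1 amplicon per gene, with 0 reads written as 0.0001. The study's methods also name Cutadapt, STAR (mm10), HTSeq and DESeq2, without saying which step wrote the table. Low values were whole multiples of 1 read (within 0.1 read, for all values under 5 RPM), which gave an inferred depth of 12311037 to 14572266 reads. Intervals from this depth would cover counting error only. Sums over a library were 1000000 RPM, so a gene family that takes more of a library lowers the others. Gene names turned into dates were repaired for 27 amplicons.

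Here, limma 3.58.1 (R 4.3.3) was fitted with an intensity trend on log2(RPM + 1) over all amplicons that reached 1 RPM in 4 or more libraries, on 12 libraries per subset for genotypes and on all 24 for subsets and interactions, with 3 genotypes or 6 groups sharing 1 estimate of the spread. Fold changes are on that scale, which understates changes of low genes. A call needed a fold over 1.5 and an unadjusted P under 0.05, thresholds as in the study, and adjusted P are Benjamini-Hochberg values from limma, two-sided. On simulated data for *Slc29a3*-/- against WT Ly6C hi cells (10561 amplicons), 92% of 2-fold and 41% of 1.5-fold changes were called, and 57% and 13% at an adjusted P. For the same comparison in Ly6C low cells (10317 amplicons) these were 83% and 46%, and 31% and 9% at an adjusted P. Each simulation raised 100 amplicons by each fold and lowered none. In the Ly6C hi data 8.15% of amplicons were higher and 14.3% lower at an adjusted P. Adjusted P depend on how many genes change, so the simulated adjusted shares need not hold for these data. The sources do not say that libraries came from separate mice, so P measures only the spread between these libraries.

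The members, the other lists and the alternatives were chosen with earlier results of these data known. Fixed examples of the members and each member called at an adjusted P are given by value, and the rest by counts and ranges. Alternatives were TMM and RLE scaling, another pseudocount, other filters, no trend, other sets of libraries in the fit, each library left out, WT replicate 4 standing alone for WT, and a replicate block. After seeing the data, 2 were added: the neutrophil markers left out of the total, and *Slc29a3*-/- *Tlr7*-/- Ly6C low replicates 3 and 4 left out. Deviations from the group mean correlated between same-numbered WT libraries of the 2 subsets (r = 0.32, 0.26, 0.26 and 0.62 over amplicons). Among WT libraries, only for replicate 4, which stood apart in both subsets, was the same-numbered library the best match in both directions. In *Slc29a3*-/- this held for replicates 1 and 2 (r = 0.255 and 0.167) and not for 3 and 4 (-0.0813 and 0.109). In *Slc29a3*-/- *Tlr7*-/- it held for replicate 1 (0.338) and not for 2, 3 and 4 (-0.456, -0.152 and 0.0609). *Xist* and *Ddx3y* were found alike in same-numbered libraries of the 2 subsets, except for *Slc29a3*-/- *Tlr7*-/- replicate 3. Pairing was therefore not settled, and the subset and interaction fits took libraries as independent. A block that took same-numbered libraries as pairs left the 6 and 12 calls between WT subsets as they were. Promoter windows come from RefSeq and gene positions from GENCODE vM21 (both GRCm38).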

Additional observations from a re-analysis of the deposited data

Results flagged for a closer look

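Among 317 groups of 4 libraries, each a member in 1 group, 34 held a library far from the other 3 by Dixon's test (critical ratio 0.829), where chance gives about 15.9, or 1 in 20. Of these, 13 were WT Ly6C hi replicate 4 and 8 were WT Ly6C low replicate 4. In WT Ly6C hi cells, replicate 4 was above the others for *Hexa* (111 RPM), *Gusb* (42.2 RPM), *Sgsh* (43.1 RPM), *Pla2g15* (136 RPM), *Ctsc* (731 RPM), *Lgmn* (123 RPM), *Psap* (4888 RPM), *Lamp1* (1278 RPM), *Npc1* (131 RPM), *Atp6v0d1* (85.6 RPM) and *Atp6v1a* (151.4 RPM). It was below them for *Arsb* (50.2 RPM) and *Atp6v0b* (226 RPM). In WT Ly6C low cells, replicate 4 was above the others for *Fuca1* (178 RPM), *Asah1* (234 RPM), *Ctsh* (378 RPM), *Ctns* (51.9 RPM), *Atp6v1a* (86.4 RPM) and *Atp6v1b2* (241 RPM), and below them for *Neu1* (56.3 RPM) and *Ctsb* (2237 RPM).

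Other libraries stood alone for 1 or 2 genes each. In Ly6C hi cells these were WT replicate 1 for *Arsa* (39.4 RPM, low), WT replicate 2 for *Ctsd* (1045 RPM, high), *Slc29a3*-/- replicate 4 for *Smpd1* (11.8 RPM, low) and *Gm2a* (239 RPM, low), *Slc29a3*-/- replicate 2 for *Atp6v0b* (239.7 RPM, high) and *Slc29a3*-/- *Tlr7*-/- replicate 1 for *Atp6v1a* (91.5 RPM, low). In Ly6C low cells they were WT replicate 3 for *Ids* (134 RPM, high), *Slc29a3*-/- replicate 2 for *Atp6v0b* (251 RPM, high), *Slc29a3*-/- replicate 4 for *Psap* (2536 RPM, high) and *Atp6v1c1* (28.2 RPM, low), and *Slc29a3*-/- *Tlr7*-/- replicates 1, 2 and 4 for *Smpd1* (21.5 RPM, high), *Ids* (125 RPM, high) and *Ctsl* (74.6 RPM, high).

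The effect of *Slc29a3* loss differed between the subsets at an adjusted P for 8 members. The effect in Ly6C low minus that in Ly6C hi cells was 1.496 for *Ctsl*, 1.20 for *Lipa*, 0.96 for *Npc2*, 0.96 for *Ppt1*, 0.83 for *Gaa*, 0.65 for *Arsa*, -0.99 for *Arsb* and -1.07 for *Galns* on the log2(RPM + 1) scale.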

How the results depend on the processing

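Of 316 counts of called members under the alternatives, 295 stayed within 1.5 times the count reported, and of 103 member calls at an adjusted P, 56 passed the fold and unadjusted P thresholds under every alternative. At an adjusted P, 8 of 11 calls for *Slc29a3*-/- against WT in Ly6C hi cells were kept after TMM scaling and 1 with WT represented by replicate 4 alone. In Ly6C low cells 3 of 3 (*Slc29a3*-/-) and 4 of 5 (*Slc29a3*-/- *Tlr7*-/-) were kept after TMM scaling and 0 of either in the latter setting. *Gla* in *Slc29a3*-/- against WT Ly6C hi cells changed sign with WT represented by replicate 4 alone (0.077). That setting gave 0 calls for *Slc29a3*-/- *Tlr7*-/- against WT in Ly6C hi cells, 4 and 5 for *Slc29a3*-/- and *Slc29a3*-/- *Tlr7*-/- against WT in Ly6C low cells, and 1 for the subset difference of the *Slc29a3*-/- *Tlr7*-/- effect. An adjusted P threshold gave 0, 3, 5, 0, 8 and 0 for *Slc29a3*-/- *Tlr7*-/- against WT in Ly6C hi cells, *Slc29a3*-/- and *Slc29a3*-/- *Tlr7*-/- against WT and against each other in Ly6C low cells, and the subset differences of the *Slc29a3*-/- and *Slc29a3*-/- *Tlr7*-/- effects. With 1 library left out, the counts ran from 8 to 18 between the mutants in Ly6C hi cells, and in Ly6C low cells from 6 to 13 for *Slc29a3*-/- against WT, 7 to 19 for *Slc29a3*-/- *Tlr7*-/- against WT (16 without its replicate 1) and 2 to 7 between the mutants, and from 2 to 7 for the subset difference of the *Slc29a3*-/- *Tlr7*-/- effect. With *Slc29a3*-/- *Tlr7*-/- Ly6C low replicates 3 and 4 left out, that difference gave 5 calls and the comparison with WT 3. The cause was not tested. The replicate block moved the calls to 2 between the mutants in Ly6C low cells, 24 between the *Slc29a3*-/- *Tlr7*-/- subsets and 14 for the subset difference of the *Slc29a3*-/- effect, and changed no other count. Whether replicate numbers pair libraries was not settled, and same-numbered libraries of the mutant groups did not all deviate together. Count-based tests were not run. Depth limits *Idua* and *Atp6v0d2*, near or under 1 RPM.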
